A study of Homo sapiens with 8 samples.

Results

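The 44 genes described here encode the proteins that license origins of DNA replication and build and run the replication fork. They were taken by symbol from the 25593 rows of an expression table, each row holding a gene's level in 8 RNA sequencing libraries, and the symbols were listed by role, though with earlier results of these data known. Every symbol had a row, and all 44 passed the filter on low values that left 12511 genes to be tested. The libraries came from a pair of human acute myeloid leukaemia cell lines. Kasumi-1 carries the RUNX1-RUNX1T1 fusion, and HL60 is a line with high MYC expression; both are established lines, and any other alteration they carry is present with and without drug. Each line was treated with 100 nM cinobufagin for 24 h or left untreated, with 2 libraries in each of the 4 groups. Cinobufagin is a bufadienolide, a toad-venom steroid that inhibits the sodium-potassium pump.

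Replication begins with the origin recognition complex (ORC), which with CDC6 and CDT1 loads the ring-shaped MCM2-7 helicase onto DNA in G1. Kinases and activation factors then turn that ring into a moving helicase, and DNA polymerase alpha with its primase lays down primers. Polymerases epsilon and delta extend the leading and lagging strands, tethered by the clamp PCNA, which the RFC complex loads. Most of these genes are transcribed in late G1 and S phase under E2F control, so their mRNA levels are commonly read as a sign of proliferation. In bulk RNA, fewer cells in S phase and less mRNA in each such cell cannot be told apart.

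Levels are the deposited FPKM (fragments scaled by transcript length and library size), which are relative within a library and show no change in total mRNA per cell. Changes are differences of log2(FPKM + 1) from limma, cinobufagin against untreated within a line, and a gene is said to have risen or fallen when its p-value, adjusted by the Benjamini-Hochberg method over the 12511 tested genes, was under 0.05. The labels are silent on whether the 2 replicates of each group were independent cultures. The p-values measure only the spread between libraries, which may be technical. A permutation of 2 libraries against 2 cannot give a two-sided p under 0.33. The Kasumi-1 medium held more serum than that of HL60, so line and serum cannot be told apart.

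The libraries held 10623 to 11371 genes at 1 FPKM or more. Their relative depth, read from the step size of 480 low genes, ran from 0.785 to 1.06 of the first untreated HL60 library, and was lowest in the first treated Kasumi-1 library. Summed FPKM of the Kasumi-1 markers RUNX1T1, KIT, CD34 and TRH was 315 to 346 in Kasumi-1 libraries and 0.27 to 0.995 in HL60 libraries. The myeloid granule genes MPO, PRTN3 and ELANE had been listed as HL60 markers but were higher in Kasumi-1 libraries, with sums of 9391 to 12191 FPKM. They therefore did not set HL60 apart. In HL60 they summed to 279 and 312 FPKM in treated against 4042 and 4104 FPKM in untreated libraries. The part of this HL60 shift in the replication genes' changes was not tested. In the annotation, exons of 15 members overlap a gene on the opposite strand. For 5 of them that gene has a row in the table (DBF4 with SLC25A40, MCM2 with TPRA1, MCM7 with AP4M1, PRIM1 with HSD17B6 and RFC4 with EIF4A2). The others of the 15 are CHAF1A, CLSPN, FEN1, GINS2, GINS3, GINS4, LIG1, ORC2, RFC5 and RPA3. On the same strand, FEN1 overlaps FADS2, which has a row. POLA2, POLD1 and PRIM1 each overlap a protein-coding gene on the same strand that has no row. The libraries were stranded, but the strand setting used in quantification is not stated in the sources at hand. Whether reads of the opposite-strand pairs were kept apart is therefore not known, and strand cannot separate those of the same-strand pairs.

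**Figure D1:**
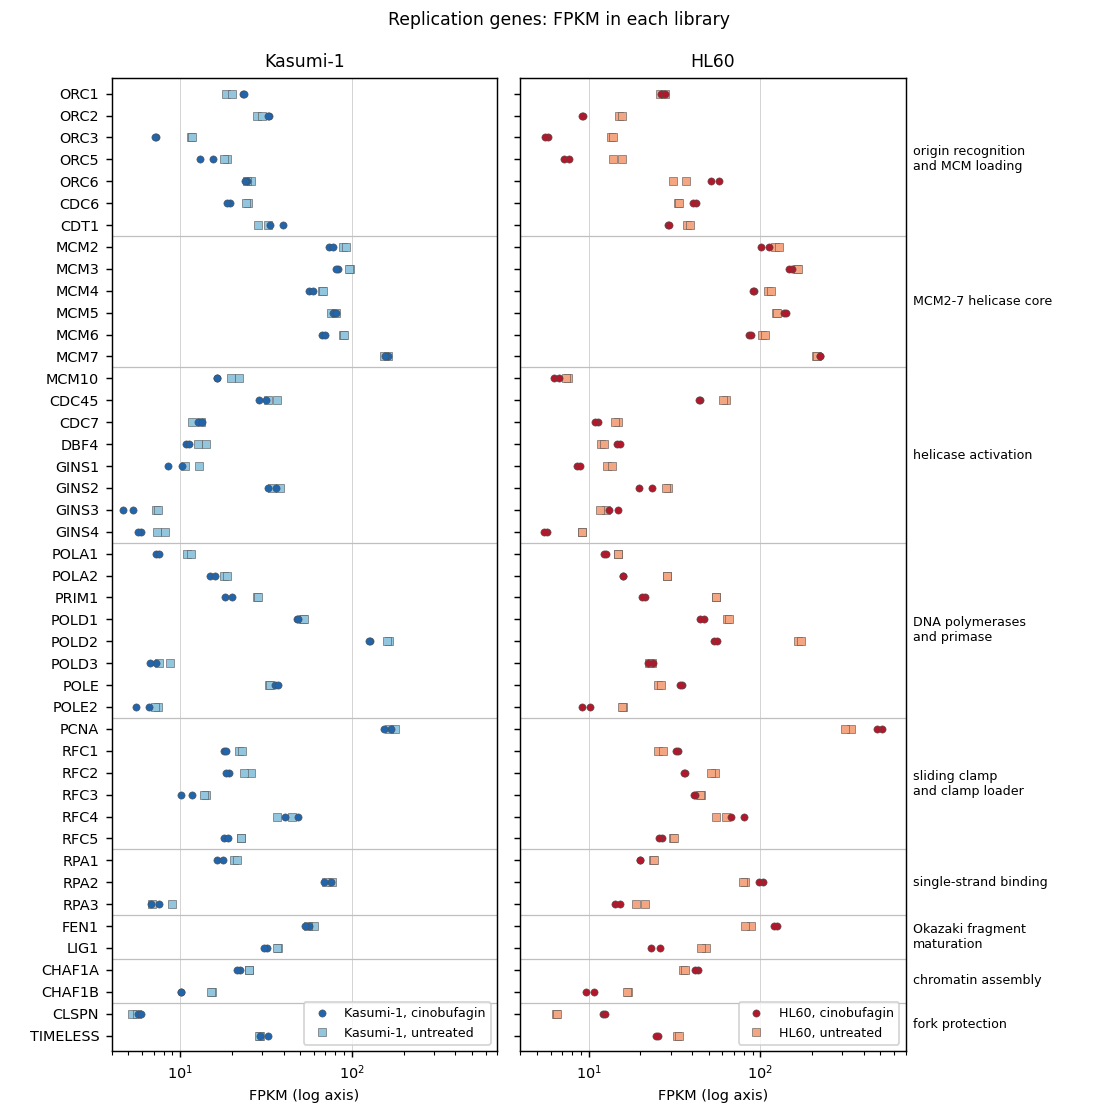
FPKM (log axis) of each of the 44 replication genes in every library, in Kasumi-1 on the left and HL60 on the right; circles are the 2 cinobufagin libraries and squares the 2 untreated libraries, and grey lines separate the roles. The MCM2-7 genes and PCNA lie at the right of both panels, and the widest gaps between circles and squares are those of POLD2, PRIM1 and ORC3 in HL60.

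In HL60, cinobufagin changed most replication genes, and mostly downward. Of the 44, 26 fell, 11 rose and 7 were not called. The 37 called genes are 84.1% of the members, in a comparison that called 73.6% of all tested genes; the falls are 59.1% of the members against 37.6% of all tested genes, and the rises 25.0% against 36%. The changes were modest beside those of other genes. The median absolute change was 0.38 on the log2 scale among members and 0.57 among all tested genes, and 3 members (POLD2, PRIM1 and ORC3) fell at least 2-fold, 6.82% of the members against 14.1% of tested genes, while no member rose that far, against 11.9%. The median change was -0.25 among members and -0.01 among all tested genes, and taken within each replicate number it was -0.26 and -0.27. The rises made up 29.7% of the called members with the deposited FPKM and 50% after the libraries were rescaled to the same sum without short RNAs, a scaling that lifted the median change of all tested genes by 0.09. Treated and untreated libraries did not overlap for 42 members, 14 of them higher and 28 lower in the treated ones; 86.9% of tested genes did not overlap.

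**Figure D2:**
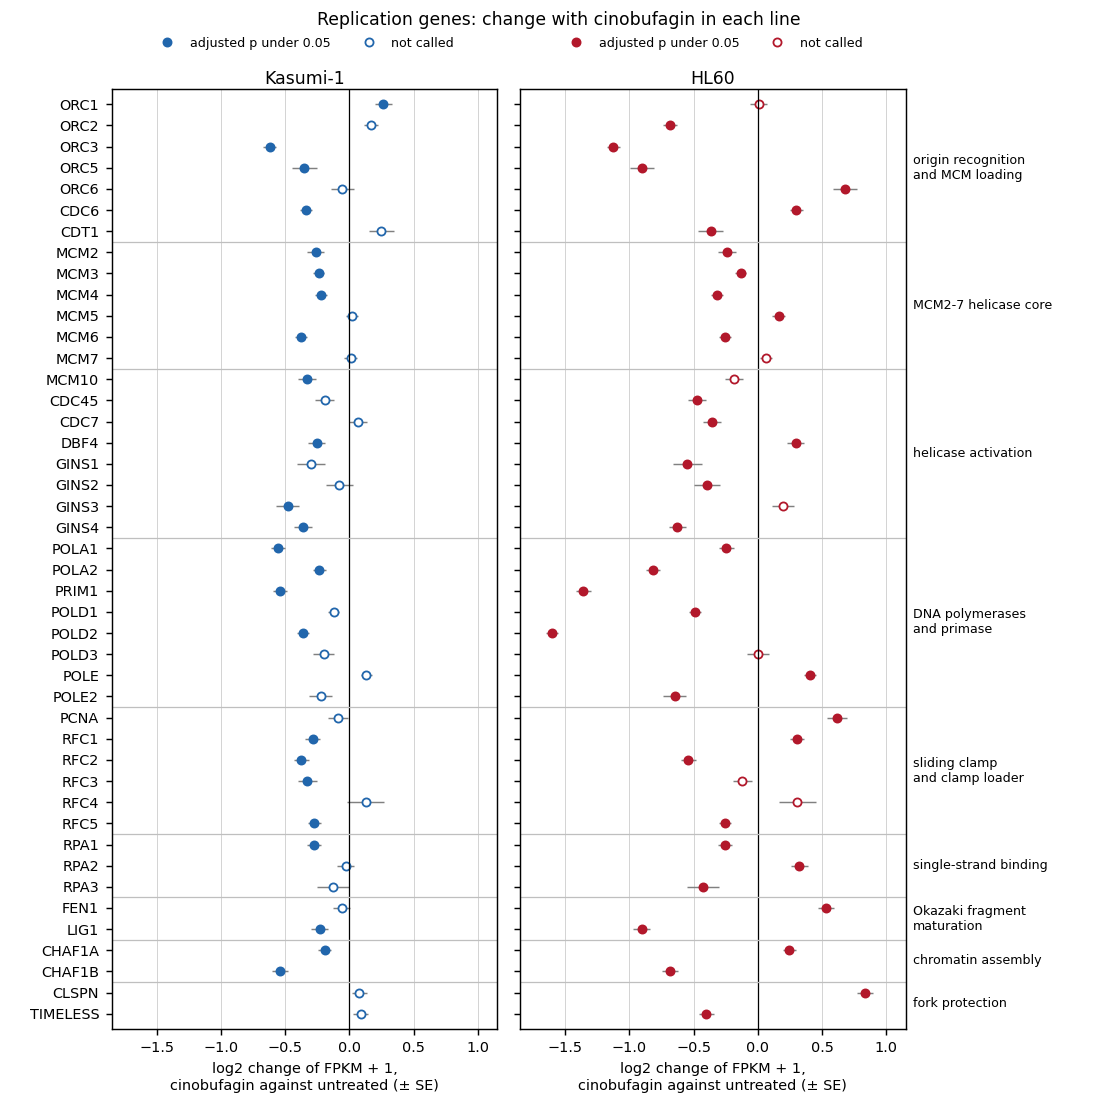
Change of log2(FPKM + 1) with cinobufagin for each of the 44 genes (point) with its standard error (line), Kasumi-1 on the left and HL60 on the right; filled points had an adjusted p under 0.05 and open points did not. HL60 changes reach from -1.60 (POLD2) to 0.83 (CLSPN), and Kasumi-1 changes from -0.62 (ORC3) to 0.26 (ORC1).

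Several complexes, and enzymes that act in sequence, held both rises and falls in HL60, where 36% of all tested genes rose and 37.6% fell. How often other groups of genes are divided in this way was not tested. The GINS genes and those of polymerase alpha, primase and polymerase delta held no called rise. Some of the falls, such as those of CDC7, RPA1 and RPA3, were not called after rescaling to the same sum. The promoters of 6 members with an E2F word in the window are shown, picked to hold both directions. POLE, PCNA and CLSPN rose in HL60, and POLE2, ORC3 and LIG1 fell. This choice does not show the balance among all members with such a word, which is given below the windows. Whether E2F factors act on these genes here was not tested. Each window runs from 250 bases before the annotated start to 50 bases after it, 5′ to 3′ on the gene's strand, from RefSeq on GRCh38.p14 (the expression values were made on hg19). Capitals mark the words TTTCCCGC, TTTGGCGC, TTTCGCGC or TTTGCCGC or their reverse complements. The POLE window is chr12:132687293-132687592 on the minus strand, that of POLE2 chr14:49688165-49688464 on the minus strand, that of PCNA chr20:5126573-5126872 on the minus strand, that of CLSPN chr1:35769929-35770228 on the minus strand, that of ORC3 chr6:87589885-87590184 on the plus strand and that of LIG1 chr19:48170295-48170594 on the minus strand.
POLE: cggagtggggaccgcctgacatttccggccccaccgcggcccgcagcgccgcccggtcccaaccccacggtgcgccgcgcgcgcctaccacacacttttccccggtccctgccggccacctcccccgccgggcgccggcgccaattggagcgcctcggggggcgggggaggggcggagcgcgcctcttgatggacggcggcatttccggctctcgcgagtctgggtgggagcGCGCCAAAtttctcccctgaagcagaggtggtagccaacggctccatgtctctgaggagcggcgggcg
POLE2: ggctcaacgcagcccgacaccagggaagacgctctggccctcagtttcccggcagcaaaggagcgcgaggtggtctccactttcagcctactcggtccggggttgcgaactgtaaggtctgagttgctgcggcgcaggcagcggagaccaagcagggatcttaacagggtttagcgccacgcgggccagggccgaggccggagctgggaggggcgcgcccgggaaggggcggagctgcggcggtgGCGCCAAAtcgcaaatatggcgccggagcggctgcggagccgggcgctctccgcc
PCNA: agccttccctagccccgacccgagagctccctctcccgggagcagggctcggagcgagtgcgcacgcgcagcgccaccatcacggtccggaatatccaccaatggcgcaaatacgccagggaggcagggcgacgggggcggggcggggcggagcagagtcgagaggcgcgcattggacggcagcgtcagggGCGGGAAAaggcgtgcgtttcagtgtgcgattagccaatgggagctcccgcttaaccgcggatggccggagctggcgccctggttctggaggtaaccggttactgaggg
CLSPN: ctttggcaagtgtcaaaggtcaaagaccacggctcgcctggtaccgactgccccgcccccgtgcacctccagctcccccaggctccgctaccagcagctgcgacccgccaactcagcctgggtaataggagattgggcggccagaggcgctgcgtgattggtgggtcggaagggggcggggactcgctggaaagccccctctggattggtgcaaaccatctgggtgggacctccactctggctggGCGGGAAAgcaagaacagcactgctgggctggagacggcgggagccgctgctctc
ORC3: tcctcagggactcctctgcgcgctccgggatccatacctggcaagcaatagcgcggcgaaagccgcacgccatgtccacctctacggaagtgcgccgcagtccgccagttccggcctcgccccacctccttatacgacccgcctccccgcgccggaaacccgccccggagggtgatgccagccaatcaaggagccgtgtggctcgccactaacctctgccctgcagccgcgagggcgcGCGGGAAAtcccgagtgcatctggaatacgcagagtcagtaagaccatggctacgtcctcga
LIG1: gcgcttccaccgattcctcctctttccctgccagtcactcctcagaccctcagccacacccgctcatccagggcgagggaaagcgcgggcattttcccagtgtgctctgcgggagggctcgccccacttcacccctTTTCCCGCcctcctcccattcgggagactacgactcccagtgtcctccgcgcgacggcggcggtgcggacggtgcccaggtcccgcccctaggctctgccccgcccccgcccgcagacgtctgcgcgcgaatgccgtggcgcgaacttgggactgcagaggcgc
The first base of the match lies 18, 5, 59, 5, 12 and 114 bases before the start site in that order. Windows were found for 38 of the 44 genes, and 19 of those (50%) held an E2F word, against 3.99% of all 27305 genes with windows. These 27305 genes were not limited to the 12511 tested, whereas all 44 members were tested. Of the 19, 4 rose, 12 fell and 3 were not called in HL60. The E-box word CACGTG, read by MYC and other factors, was in 6 of the 38 windows (15.8%, against 8.77% of all genes), and CCAAT, on either strand, was in 23 (60.5%, against 39.7%). A match is only a string of letters in these windows and shows no binding.

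Among the genes for origin recognition and MCM loading, 2 rose and 4 fell of 7 in HL60. These are 28.6% and 57.1%, against 36% and 37.6% of all tested genes. ORC3, a core ORC subunit, was at 5.83 and 5.59 FPKM in treated HL60 and 13.4 and 13.8 FPKM in untreated HL60. Both treated libraries lay well below both untreated ones, a change of -1.12 ± 0.05 (log2, SE; adjusted p = 4.28e-06). ORC5, an ATP-binding subunit, was at 7.15 and 7.68 FPKM in treated against 13.9 and 15.6 FPKM in untreated HL60, a change of -0.90 ± 0.10 (adjusted p = 0.000159). ORC2, a core subunit, was at 9.23 and 9.10 FPKM in treated against 15 and 15.6 FPKM in untreated HL60 (-0.68 ± 0.05, adjusted p = 3.32e-05). ORC6, the smallest and least tightly bound subunit, went the other way, with 57.7 and 51.7 FPKM in treated and 36.7 and 31.0 FPKM in untreated HL60. The groups did not overlap, and the change was 0.68 ± 0.09 (adjusted p = 0.000522). ORC1, the subunit that is degraded as S phase begins in human cells, had a change of 0.01 ± 0.06 (adjusted p = 0.956), with overlapping libraries. The ratio of ORC3 to ORC1, which a constant factor per library cannot alter, was 0.221 and 0.201 in treated and 0.516 and 0.495 in untreated HL60.

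The loaders CDC6 and CDT1 also moved apart in HL60. CDC6, the ATPase that joins ORC to recruit the helicase, was at 42.1 and 40.3 FPKM in treated against 33.1 and 33.4 FPKM in untreated HL60, a rise of 0.30 ± 0.05 (adjusted p = 0.00131). CDT1, which escorts the helicase to the origin and is held in check by geminin, was at 28.8 and 29.5 FPKM in treated against 37.2 and 38.7 FPKM in untreated HL60, a change of -0.37 ± 0.10 (adjusted p = 0.0127). Neither gene's groups overlapped. The call for CDT1 was lost after rescaling to the same sum, where its change was -0.19, and also without the second untreated or the first treated HL60 library.

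The MCM2-7 genes, whose products form the hexameric helicase core in equal numbers, changed least as a group in HL60. Their changes ran from -0.32 to 0.16, with a median of -0.19; MCM2, MCM3, MCM4 and MCM6 fell, MCM5 rose and MCM7 was not called. MCM4 was at 91.3 and 90.5 FPKM in treated against 111 and 116 FPKM in untreated HL60, a change of -0.32 ± 0.05 (adjusted p = 0.000851). MCM6 was at 86.4 and 87.7 FPKM in treated against 102 and 107 FPKM in untreated HL60 (-0.26 ± 0.05, adjusted p = 0.00222), and MCM2 at 101 and 112 FPKM against 122 and 129 FPKM (-0.24 ± 0.07, adjusted p = 0.0161). MCM3 was at 153 and 148 FPKM in treated against 164 and 166 FPKM in untreated HL60, and its small fall of -0.13 (adjusted p = 0.0271) became 0.05 after rescaling to the same sum. MCM5 was at 137 and 140 FPKM in treated and 123 and 125 FPKM in untreated HL60 (0.16, adjusted p = 0.0213), a call lost without any 1 of the 4 HL60 libraries. MCM7, the most abundant of the 6, was at 222 FPKM in both treated libraries and 212 FPKM in both untreated ones (adjusted p = 0.288). The 6 genes summed to 790 and 799 FPKM in treated and 834 and 854 FPKM in untreated HL60. None of the 4 falls was called after rescaling to the same sum, where MCM7 was called as a rise.

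Of the 8 helicase activation genes, 5 fell and 1 rose in HL60 (62.5% and 12.5%, against 37.6% and 36% of all tested genes). GINS4, a subunit of the 4-part GINS ring that joins the helicase, was at 5.69 and 5.47 FPKM in treated against 9.16 and 9.15 FPKM in untreated HL60, a change of -0.63 ± 0.07 (adjusted p = 0.00018). GINS1 was at 8.51 and 8.95 FPKM in treated against 12.8 and 13.7 FPKM in untreated HL60 (-0.55 ± 0.11, adjusted p = 0.00388), and GINS2 fell by 0.40 (adjusted p = 0.0108). GINS3 was at 13.2 and 14.8 FPKM in treated and 12.6 and 11.6 FPKM in untreated HL60 and was not called (0.19, adjusted p = 0.0866). So in these libraries 3 of the 4 GINS genes fell and the fourth was slightly higher. CDC45, which completes the active helicase with GINS and MCM2-7, was at 44.7 and 43.6 FPKM in treated against 62.8 and 60.8 FPKM in untreated HL60 (-0.47 ± 0.07, adjusted p = 0.00104). MCM10, needed to set the assembled helicase in motion, was at 6.25 and 6.76 FPKM against 7.63 and 7.42 FPKM in untreated HL60 and narrowly missed the threshold (-0.18, adjusted p = 0.0523). After rescaling to the same sum the falls of GINS1, GINS2 and CDC7 were no longer called, and GINS3 was called as a rise.

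CDC7 and DBF4 encode the catalytic and the regulatory subunit of the kinase that fires origins, and they moved apart in HL60. DBF4 was at 14.7 and 15.3 FPKM in treated against 11.8 and 12.3 FPKM in untreated HL60 (0.29 ± 0.07, adjusted p = 0.00689). CDC7 was at 11.4 and 10.9 FPKM in treated against 14.9 and 14.3 FPKM in untreated HL60 (-0.36 ± 0.07, adjusted p = 0.00329). The ratio of DBF4 to CDC7 was thus 1.29 and 1.41 in treated and 0.792 and 0.862 in untreated HL60, with no overlap. SLC25A40, whose exons overlap DBF4 on the other strand, averaged 24.6 FPKM in treated and 14.9 FPKM in untreated HL60, and its part in the DBF4 value was not tested.

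The polymerase and primase genes held the deepest falls in HL60. Of 8, 6 fell and 1 rose (75% and 12.5%, against 37.6% and 36% of all tested genes). Their median change was -0.57, against -0.24 for the 13 licensing genes (the ORC and loading genes with MCM2-7) and 0.09 for the 6 clamp and clamp loader genes. POLD2, the second subunit of polymerase delta, was at 53.7 and 56.3 FPKM in treated and 166 and 172 FPKM in untreated HL60. Its change of -1.60 ± 0.05 (adjusted p = 6.9e-07) was the deepest of the 44. POLD1, the catalytic subunit, was at 47.0 and 44.8 FPKM in treated and 63.8 and 65.8 FPKM in untreated HL60 (-0.49 ± 0.05, adjusted p = 8.62e-05). POLD3, an accessory subunit, was at 23.8 and 22.1 FPKM in treated and 22.6 and 23.3 FPKM in untreated HL60, with overlapping libraries (adjusted p = 1). Within this enzyme the changes therefore spanned 1.60 on the log2 scale. The ratio of POLD2 to POLD1 was 1.14 and 1.26 in treated and 2.60 and 2.62 in untreated HL60.

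Polymerase alpha and primase form a single complex that starts every new DNA strand. PRIM1, the catalytic primase subunit, was at 21.2 and 20.6 FPKM in treated and 54.8 and 55.5 FPKM in untreated HL60, a change of -1.36 ± 0.06 (adjusted p = 2.46e-06). HSD17B6, its overlapping neighbour on the other strand, averaged 0.194 FPKM in treated and 0.802 FPKM in untreated HL60. POLA2, the regulatory subunit of polymerase alpha, was at 15.8 and 15.9 FPKM in treated against 28.8 and 28.5 FPKM in untreated HL60 (-0.82 ± 0.05, adjusted p = 1.44e-05). POLA1, the catalytic subunit, was at 12.3 and 12.6 FPKM in treated and 14.9 FPKM in both untreated libraries (-0.24 ± 0.06, adjusted p = 0.00625), a call lost after rescaling to the same sum. All of the complex's 3 listed genes were lower in treated HL60, PRIM1 by far the most, and the ratio of PRIM1 to POLA1 was 1.73 and 1.63 in treated and 3.67 and 3.72 in untreated HL60.

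In polymerase epsilon, the leading strand enzyme, the catalytic and second subunits went opposite ways in HL60. POLE, the catalytic subunit, was at 35.0 and 34.2 FPKM in treated against 25.4 and 26.3 FPKM in untreated HL60, a rise of 0.41 ± 0.05 (adjusted p = 0.000217). POLE2, the second subunit, was at 10.3 and 9.18 FPKM in treated against 15.9 and 15.7 FPKM in untreated HL60, a change of -0.65 ± 0.09 (adjusted p = 0.000563). The groups of both genes were separate, and the ratio of POLE2 to POLE was 0.293 and 0.268 in treated and 0.625 and 0.596 in untreated HL60. Both windows printed above carry an E2F word within 18 bases of the start site.

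The sliding clamp rose in HL60 while its loader was split. PCNA, the ring that tethers polymerases to DNA and the most abundant of the 44 mRNAs, was at 511 and 477 FPKM in treated and 336 and 309 FPKM in untreated HL60, a rise of 0.61 ± 0.08 (adjusted p = 0.000439). RFC1, the large loader subunit, was at 33.3 and 32.4 FPKM in treated against 25.4 and 27.3 FPKM in untreated HL60 (0.31 ± 0.06, adjusted p = 0.00218). RFC2, a small subunit, was at 36.5 and 35.9 FPKM in treated against 54.5 and 51.8 FPKM in untreated HL60 (-0.54 ± 0.06, adjusted p = 0.000195). None of these groups overlapped. RFC5, another small subunit, fell by 0.26 (SE 0.05, adjusted p = 0.00309), a call lost after rescaling to the same sum. RFC3 (-0.12, adjusted p = 0.169) and RFC4 (0.31, adjusted p = 0.0948) were not called. RFC4 was at 80.1 and 67.2 FPKM in treated and 63.4 and 55.1 FPKM in untreated HL60. After rescaling to the same sum RFC4 was called as a rise (0.49, adjusted p = 0.00548). EIF4A2, whose exons overlap RFC4 on the other strand, averaged 88.7 FPKM in treated and 178 FPKM in untreated HL60, and its part in the RFC4 value was not tested. The median of the 6 clamp genes was 0.09, and it was -0.011 after quantile normalization, so no direction is given for the group.

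**Figure D3:**
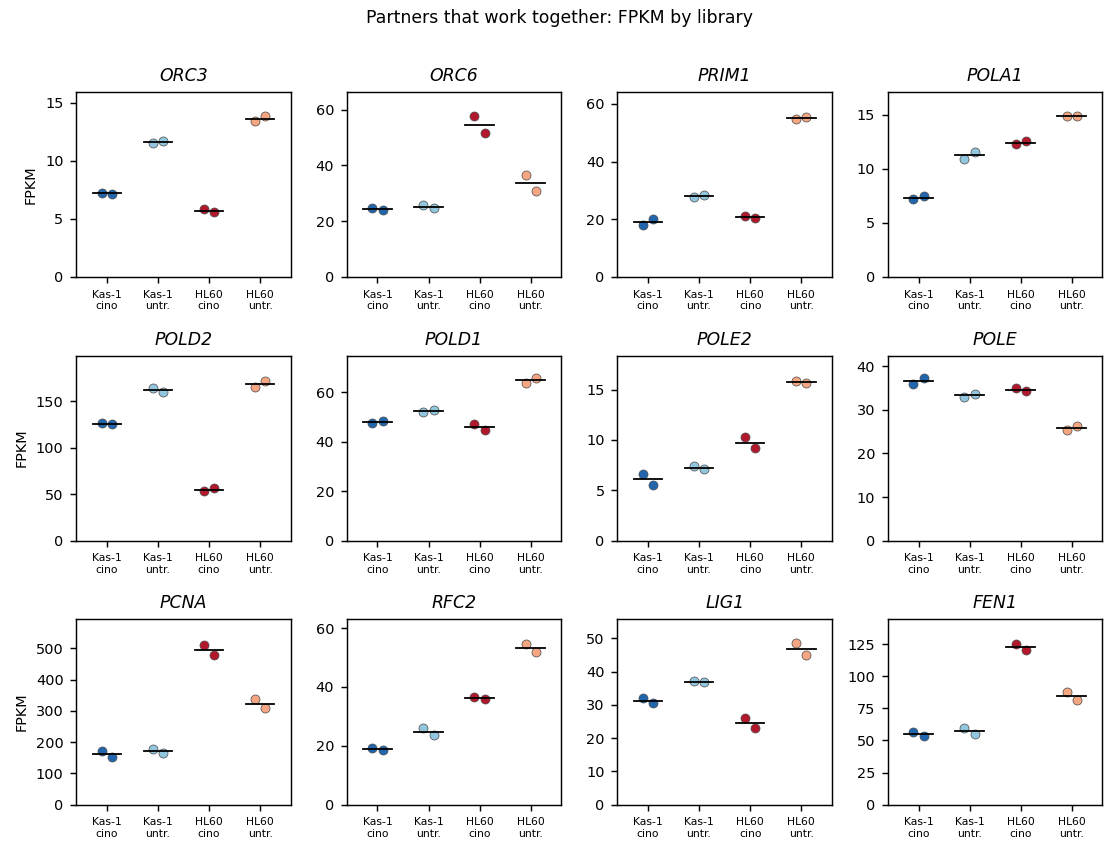
FPKM of 12 genes that work together, by library (points) with the group mean (line), with treated before untreated for Kasumi-1 and then for HL60. In HL60, ORC3 against ORC6, POLE2 against POLE and LIG1 against FEN1 moved in opposite directions, POLD2 and PRIM1 dropped further than POLD1 and POLA1, and PCNA rose while RFC2 fell.

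The remaining fork genes came in small groups that were each divided in HL60. RPA2, the middle subunit of the single-strand binding complex RPA, was at 103 and 98.3 FPKM in treated against 81.7 and 79.2 FPKM in untreated HL60 (0.32 ± 0.07, adjusted p = 0.00403). RPA3, the small subunit, was at 14.2 and 15.1 FPKM in treated against 21.2 and 18.9 FPKM in untreated HL60 (-0.43 ± 0.12, adjusted p = 0.0183), and RPA1, the large DNA-binding subunit, fell by 0.25 (SE 0.05, adjusted p = 0.00477). After rescaling to the same sum the rise of RPA2 was still called and the falls of RPA1 and RPA3 were not.

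FEN1, the nuclease that trims Okazaki fragment flaps, was at 125 and 120 FPKM in treated against 87.9 and 81.8 FPKM in untreated HL60 (0.53 ± 0.06, adjusted p = 0.000304). LIG1, the ligase that seals the fragments after it, was at 25.9 and 23.2 FPKM in treated against 48.5 and 45.1 FPKM in untreated HL60 (-0.91 ± 0.07, adjusted p = 2.91e-05). The ratio of FEN1 to LIG1 was 4.84 and 5.19 in treated and 1.81 in both untreated HL60 libraries. FADS2, which overlaps FEN1 on the same strand, averaged 3.01 FPKM in treated and 60.2 FPKM in untreated HL60, the opposite direction to FEN1.

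CHAF1A and CHAF1B encode the large and middle subunits of the chromatin assembly factor that places histones on new DNA behind PCNA. CHAF1A was at 43.5 and 41.6 FPKM in treated against 35.2 and 36.3 FPKM in untreated HL60 (0.24 ± 0.05, adjusted p = 0.00361). CHAF1B was at 10.7 and 9.60 FPKM in treated against 17.0 and 16.8 FPKM in untreated HL60 (-0.68 ± 0.06, adjusted p = 8.15e-05). The ratio of CHAF1B to CHAF1A was 0.247 and 0.231 in treated and 0.483 and 0.461 in untreated HL60.

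CLSPN (claspin), which links the fork to checkpoint kinase CHK1, had the largest rise of the 44 in HL60, at 12.2 and 12.5 FPKM in treated against 6.43 and 6.53 FPKM in untreated libraries (0.83 ± 0.06, adjusted p = 2.29e-05). TIMELESS, which also steadies the moving fork, was at 25.2 and 24.6 FPKM in treated against 32.6 and 33.8 FPKM in untreated HL60 (-0.40 ± 0.06, adjusted p = 0.000884). Across all HL60 calls, 10 of the 11 rises and 14 of the 26 falls were called under each of 3 other scalings and also without each library in turn. The 14 falls are ORC2, ORC3, ORC5, CDC45, GINS4, POLA2, PRIM1, POLD1, POLD2, POLE2, RFC2, LIG1, CHAF1B and TIMELESS, and MCM5 is the rise that was not held.

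In Kasumi-1 the replication genes mostly drifted down, by small amounts that were still above those of tested genes at large. The median absolute change was 0.24 among members and 0.17 among all tested genes. Of the 44, 23 fell, 1 rose and 20 were not called, so 54.5% were called against 26.3% of all tested genes. The falls are 52.3% of the members against 16.2% of tested genes, and the single rise is 2.27% against 10.1%. The median change was -0.23, against -0.04 for all tested genes, and taken within each replicate number it was -0.23 and -0.22. No member changed 2-fold, against 0.256% of tested genes that fell and 0.32% that rose that far. Fewer falls were called on 7 libraries: 13 without the first untreated, 10 without the second untreated, 12 without the first treated and 16 without the second treated Kasumi-1 library. The single rise made up 4.17% of the calls, against 14.3% (3 rises) when libraries were scaled by median ratios, 13.6% (3 rises) when their quantiles were matched and 0% after rescaling to the same sum. Over all tested genes the share of rises among calls was 38.5% as deposited, and 51.7%, 48.3% and 31.0% under these scalings. Treated and untreated libraries did not overlap for 34 members, 28 of them lower and 6 higher in treated cells; 61.5% of tested genes did not overlap.

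The falls of 8 genes in Kasumi-1 were called under all 3 other scalings and without each library in turn. ORC3 was at 7.25 and 7.16 FPKM in treated and 11.5 and 11.7 FPKM in untreated Kasumi-1, a change of -0.62 ± 0.05 (adjusted p = 0.00172) that was the deepest in this line. POLA1 was at 7.19 and 7.49 FPKM in treated against 10.9 and 11.6 FPKM in untreated Kasumi-1 (-0.56 ± 0.05, adjusted p = 0.00225). PRIM1 was at 18.1 and 19.9 FPKM in treated against 27.8 and 28.4 FPKM in untreated Kasumi-1 (-0.54, adjusted p = 0.00244). Each of these had both treated libraries below both untreated ones. CHAF1B was at 10.2 and 10.1 FPKM in treated against 15.3 and 15.1 FPKM in untreated Kasumi-1 (-0.54, adjusted p = 0.00308). The other 4 were RFC2 (-0.37, adjusted p = 0.00742), MCM6 (-0.37, adjusted p = 0.00367), POLD2 (-0.36, adjusted p = 0.00397) and CDC6 (-0.34, adjusted p = 0.00552).

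By role, 7 of 13 licensing genes, 4 of 8 activation genes, 4 of 8 polymerase genes and 4 of 6 clamp genes fell in Kasumi-1, with medians of -0.22, -0.28, -0.23 and -0.28. Over all tested genes 16.2% fell in Kasumi-1, with a median of -0.04. The medians of the licensing, polymerase and clamp genes thus lay close together, whereas in HL60 they were -0.24, -0.57 and 0.09. Subunits of a complex were also closer together: the 3 polymerase delta genes spanned 0.24 in Kasumi-1 and 1.60 in HL60, and the 5 RFC genes 0.50 and 0.85. The changes of all tested genes were less spread in Kasumi-1 too, with a standard deviation of 0.44 against 1.11 in HL60. Whether replication genes lay closer together than this smaller spread would give was not tested. The ratio of PRIM1 to POLA1 was 2.52 and 2.66 in treated against 2.55 and 2.45 in untreated Kasumi-1, with overlapping libraries. The ratios of POLD2 to POLD3, RFC2 to RFC1 and RPA3 to RPA2 overlapped there too, but others did not. PRIM1 to POLA2 was 1.21 and 1.25 in treated against 1.55 and 1.51 in untreated Kasumi-1. ORC3 to ORC1 was 0.314 and 0.303 in treated against 0.625 and 0.583 in untreated Kasumi-1. By group means, ORC3 to ORC2 fell further in Kasumi-1 (1.82-fold) than in HL60 (1.43-fold), whereas the other ratios named here moved further in HL60. ORC1 was the rise, at 23.1 and 23.6 FPKM in treated against 18.5 and 20.1 FPKM in untreated Kasumi-1 (0.26 ± 0.06, adjusted p = 0.0267), a call lost after rescaling to the same sum. PCNA, at 170 and 153 FPKM in treated and 179 and 165 FPKM in untreated Kasumi-1, overlapped between groups (adjusted p = 0.464). MCM5, MCM7, ORC6, CDC7, GINS2, RPA2, RPA3, RFC4 and FEN1 likewise overlapped and were not called. GINS1, CDC45, CDT1, ORC2, POLD1, POLD3, POLE, POLE2, CLSPN and TIMELESS were not called either though their groups did not overlap, with changes from -0.30 (GINS1) to 0.25 (CDT1).

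The other falls called in Kasumi-1, each lost without at least 1 of the 8 libraries, were 15. Among licensing and activation genes they were those of ORC5 (-0.35, adjusted p = 0.0396), MCM2 (-0.26, adjusted p = 0.0328), MCM3 (-0.24, adjusted p = 0.011), MCM4 (-0.22, adjusted p = 0.0192), MCM10 (-0.33, adjusted p = 0.0187), DBF4 (-0.25, adjusted p = 0.0373), GINS3 (-0.48, adjusted p = 0.0117) and GINS4 (-0.36, adjusted p = 0.0127). Among the others they were those of POLA2 (-0.23, adjusted p = 0.0209), RFC1 (-0.29, adjusted p = 0.0136), RFC3 (-0.33, adjusted p = 0.0197), RFC5 (-0.27, adjusted p = 0.0113), RPA1 (-0.27, adjusted p = 0.0146), LIG1 (-0.23, adjusted p = 0.0473) and CHAF1A (-0.19, adjusted p = 0.0318).

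**Figure D4:**
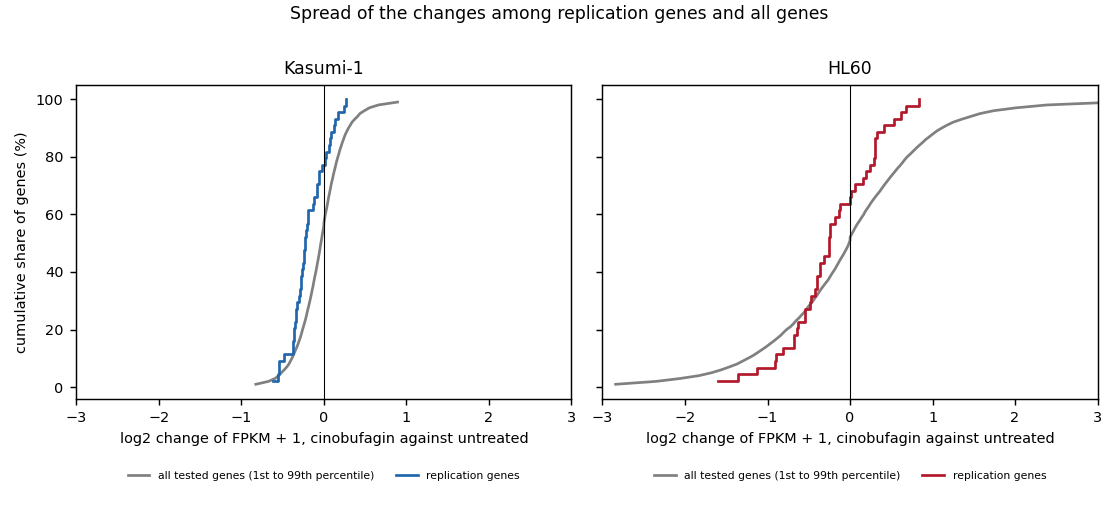
Cumulative share of genes (percent) by change of log2(FPKM + 1) with cinobufagin, for the replication genes (coloured steps) and all tested genes (grey, 1st to 99th percentile), Kasumi-1 on the left and HL60 on the right. The replication genes lie left of the grey curve over most of their range in Kasumi-1, where their median is -0.23 against -0.04, and form a narrower and left-shifted curve in HL60, where their median is -0.25 against -0.01.

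The response differed between the lines for 26 members, tested as the Kasumi-1 change minus the HL60 change: 14 differences were positive (31.8% of members, against 30.1% of all tested genes) and 12 negative (27.3%, against 33.1%). Together that is 59.1% of the members against 63.1% of all tested genes, so the share with a difference was near that of genes at large. POLD2 had the largest, 1.24 ± 0.07 (adjusted p = 1.94e-05), its change being -0.36 in Kasumi-1 and -1.60 in HL60. ORC2 followed (0.85, adjusted p = 0.000132), at 33.0 and 32.4 FPKM in treated against 28.1 and 29.9 FPKM in untreated Kasumi-1. PRIM1 (0.82, adjusted p = 0.000214) fell in both lines, further in HL60. On the negative side stood CLSPN (-0.76, adjusted p = 0.000355), ORC6 (-0.73, adjusted p = 0.00282), PCNA (-0.70, adjusted p = 0.00189) and GINS3 (-0.68, adjusted p = 0.00345). Of the polymerase genes 5 had a positive and 2 a negative difference, of the clamp genes none a positive and 2 a negative one, and of the MCM2-7 genes none was called (limma; 0 of 6 had an unadjusted p under 0.05), although negative differences of MCM3, MCM5, MCM6 and MCM7 were called after rescaling to the same sum (-0.32, -0.35, -0.33 and -0.27). After rescaling to the same sum, which shifted the median difference of all tested genes by -0.16, 7 positive differences were called (those of ORC1, ORC5, CDT1, CDC7, GINS4, POLD1 and POLE2 were not) and 18 negative ones, and the positive share of calls was 28.0% against 53.8%.

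CDC6, DBF4, RFC1 and CHAF1A were called in both lines in opposite directions, each lower in treated Kasumi-1 and higher in treated HL60. They are 4 of 44, or 9.09%, against 4.08% of all tested genes. CDC6 was at 19.6 and 18.7 FPKM in treated against 24.7 and 24.2 FPKM in untreated Kasumi-1 (difference -0.64, adjusted p = 0.000328). RFC1 was at 17.9 and 18.6 FPKM in treated against 22.0 and 23.0 FPKM in untreated Kasumi-1 (difference -0.59, adjusted p = 0.000784). DBF4 was at 10.8 and 11.3 FPKM in treated against 12.7 and 14.1 FPKM in untreated Kasumi-1 (difference -0.55, adjusted p = 0.00275). CHAF1A was at 22.3 and 21.3 FPKM in treated against 25.2 and 25.0 FPKM in untreated Kasumi-1 (difference -0.44, adjusted p = 0.00177). No group of these 4 overlapped in either line, where 86.9% (HL60) and 61.5% (Kasumi-1) of tested genes did not overlap. Of the 4 Kasumi-1 calls only that of CDC6 was held without each library in turn. Those of DBF4, RFC1 and CHAF1A were also lost after rescaling to the same sum. A further 16 members (36.4%) fell in both lines, against 10.6% of tested genes, and none rose in both, against 6.49%. Over the 44 genes the changes in the lines, which share no library, had a Pearson correlation of 0.433 and a Spearman correlation of 0.399, given as a description since the genes share libraries and depth; over all tested genes they were 0.292 and 0.404.

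Before treatment, replication genes were mostly lower in Kasumi-1 than in HL60. Of the 44, 34 were lower, 5 higher and 5 not called; the 39 calls are 88.6% of the members against 69.7% of tested genes, and the lower ones 77.3% against 33.8%. Untreated libraries of the lines did not overlap for 43 members, 37 of them lower and 6 higher in Kasumi-1; 84.5% of tested genes did not overlap. The median difference, untreated Kasumi-1 minus untreated HL60, was -0.39 among members and 0.01 among all tested genes. All 6 MCM2-7 genes were lower in Kasumi-1, with a summed level of 580 FPKM in both untreated libraries, against 834 and 854 FPKM in untreated HL60. All 6 clamp genes were lower too, with sums of 308 and 284 FPKM in untreated Kasumi-1 and 556 and 519 FPKM in untreated HL60. RFC3 differed most, at 14.1 and 13.8 FPKM in untreated Kasumi-1 against 45.4 and 44.7 FPKM in untreated HL60 (-1.62 ± 0.07, adjusted p = 2.61e-06). POLD3 was at 8.78 and 7.52 FPKM in untreated Kasumi-1 against 22.6 and 23.3 FPKM in untreated HL60 (-1.39, adjusted p = 1.05e-05). MCM10 was the widest exception, at 19.7 and 22.1 FPKM in untreated Kasumi-1 against 7.63 and 7.42 FPKM in untreated HL60 (1.36 ± 0.07, adjusted p = 5.82e-06). The others higher in Kasumi-1 were ORC2 (0.88, adjusted p = 1.08e-05), POLE (0.35, adjusted p = 0.000496), GINS2 (0.33, adjusted p = 0.0251) and ORC5 (0.31, adjusted p = 0.0253), and the calls of ORC5 and GINS2 were lost without the first untreated library of either line. Among the MCM2-7 and clamp genes, the calls of MCM6 and RFC1 were lost under at least 1 other scaling, and those of RFC1 and RFC4 without at least 1 library. POLD2 stood at 164 and 160 FPKM in untreated Kasumi-1 and 166 and 172 FPKM in untreated HL60 and was not called (-0.06, adjusted p = 0.305).

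Other genes of the pathway were read from 6 lists, chosen as the members were, with 70 of 71 symbols having a row; their counts stand beside 36% of all tested genes that rose and 37.6% that fell in HL60, and 10.1% that rose and 16.2% that fell in Kasumi-1. In HL60, the G1/S regulators rose almost throughout, 11 of 12 (91.7%) with a median change of 0.61 and 1 fall. E2F8 (1.74, adjusted p = 1.67e-06) and E2F2 (1.5, adjusted p = 1.83e-05), a repressor and an activator of the E2F family, rose most, and CCNE1, which encodes cyclin E1, fell (-0.51, adjusted p = 0.00711). In Kasumi-1 the same list had 2 rises, E2F8 (0.60, adjusted p = 0.00261) and the kinase gene CDK2 (0.46, adjusted p = 0.00329), and 2 falls, CCNE2 (-0.59, adjusted p = 0.00287) and E2F1 (-0.21, adjusted p = 0.0425). Of 9 S phase checkpoint genes 5 rose and 4 fell in HL60, among them the mitotic brake WEE1 (0.85, adjusted p = 3.36e-05), the phosphatase gene CDC25A (0.73, adjusted p = 6.4e-05), and ATRIP (-0.86, adjusted p = 0.000138) and RAD17 (-0.80, adjusted p = 8.64e-05), which bring the ATR kinase and the checkpoint clamp to damaged forks. None of the 9 was called by limma in Kasumi-1, where 4 had an unadjusted p under 0.05.

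Of 25 other replication factors, 9 rose and 9 fell in HL60 (36% each, near the shares of all tested genes), and 1 rose and 6 fell in Kasumi-1 (4% and 24%). MCMBP, which binds MCM proteins, was at 48.4 and 46.4 FPKM in treated against 20.7 and 19.8 FPKM in untreated HL60 (1.18 ± 0.05, adjusted p = 2.46e-06), while the MCM2-7 genes themselves moved by 0.32 or less. DONSON (0.96, adjusted p = 1.29e-05), which helps assemble the helicase, rose too, and RNASEH2A (-1.42, adjusted p = 5.24e-06), which removes RNA from DNA, and the alternative clamp loader gene DSCC1 (-1.12, adjusted p = 1.67e-05) fell. In Kasumi-1 TOP2A (0.19, adjusted p = 0.024) rose, and TIPIN (-0.58, adjusted p = 0.00941), the partner of TIMELESS, and DSCC1 (-0.42, adjusted p = 0.00991) fell.

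Nucleotide supply showed 3 rises and 4 falls of 10 genes in HL60 and 1 rise and 4 falls in Kasumi-1. SLC29A1, a nucleoside transporter (-3.19, adjusted p = 1.4e-07), and NME1, a nucleoside diphosphate kinase (-2.55, adjusted p = 2.98e-06), fell furthest in HL60, and DCK (0.33, adjusted p = 0.00693) and RRM2 (0.30, adjusted p = 0.00344) rose. NME1 has a closely similar neighbour, NME2, with which its reads may be shared. RRM2, the small subunit of ribonucleotide reductase, fell in Kasumi-1 (-0.78, adjusted p = 0.00124), as did NME1 (-0.60, adjusted p = 0.012), while TK1 (0.25, adjusted p = 0.0188) rose. Of 8 histone chaperone genes 3 rose and 2 fell in HL60, led by ASF1B (0.79, adjusted p = 1.44e-05) and HAT1 (0.72, adjusted p = 0.000139) upward and the FACT subunits SUPT16H (-0.83, adjusted p = 5.23e-06) and SSRP1 (-0.41, adjusted p = 0.0015) downward. Their Kasumi-1 calls were 1 rise, ASF1B (0.27, adjusted p = 0.0119), and 3 falls, among them SUPT16H (-0.36, adjusted p = 0.00309) and SSRP1 (-0.32, adjusted p = 0.0181). Of 6 genes for methylation and cohesion behind the fork 5 rose in HL60, ESCO2 (1.25, adjusted p = 8.99e-05) and RAD21 (0.62, adjusted p = 0.000558) most, and UHRF1 fell (-0.23, adjusted p = 0.0159); in Kasumi-1 SMC3 fell (-0.20, adjusted p = 0.0216). MYC, which drives many growth genes, was at 199 and 202 FPKM in treated Kasumi-1 and 308 and 310 FPKM in untreated Kasumi-1 (-0.62, adjusted p = 0.00124). In HL60 it was at 30.3 and 29.2 FPKM in treated against 786 and 749 FPKM in untreated HL60 (-4.64, adjusted p = 7.85e-08).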

How the data were processed

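RNA from HL60 and Kasumi-1 cells was sequenced in 8 poly(A)-selected stranded libraries, and the authors deposited 1 table of FPKM per gene; bcl2fastq 2.20.0, HISAT2 2.1.0, Cufflinks 2.2.1 and the hg19 build are named, per the submitters' processing notes. Annotation, strand setting and filters are not stated in the sources at hand. All 8 columns were used and 0 left out. FPKM hold no read counts, so depth is known only relatively. Genes with at least 1 FPKM in at least 2 libraries (12511 of 25593 rows) were tested on log2(FPKM + 1) with limma 3.58.1 in R 4.3.3 (1 mean per group, trended variance, 4 residual degrees of freedom), with Benjamini-Hochberg adjustment over all of them and a threshold of 0.05. The procedure was tested on simulated data with independent noise in each library. Same-numbered libraries here deviated together, which that test did not cover. Fold changes on this scale understate those of low genes. The members and lists were chosen with earlier results of these data known, and 1 gene of the nucleotide supply list is not reported here. All 44 members are named; the 3 largest changes of each role in HL60, members called in opposite directions and those with a difference of at least 1 are described in full, and up to 2 genes per direction of each other list. Alternatives were a pseudocount of 0.1, no filter or a filter at 5 FPKM, 3 other scalings, no variance trend, each line fitted alone, the replicate number as a block, and leaving out each library.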

Additional observations from a re-analysis of the deposited data

Results flagged for a closer look

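The cinobufagin change differed between Kasumi-1 and HL60, by limma's test of the difference (Kasumi-1 change minus HL60 change, log2 scale, adjusted p under 0.05), for 26 replication genes and for others on the lists. Among origin genes the differences were 0.26 for ORC1, 0.85 for ORC2, 0.50 for ORC3, 0.55 for ORC5, -0.73 for ORC6, -0.64 for CDC6 and 0.62 for CDT1. Among helicase activation genes they were 0.42 for CDC7, -0.55 for DBF4, -0.68 for GINS3 and 0.27 for GINS4. Among polymerase genes they were -0.31 for POLA1, 0.58 for POLA2, 0.82 for PRIM1, 0.37 for POLD1, 1.24 for POLD2, -0.27 for POLE and 0.42 for POLE2. At the clamp and the rest of the fork they were -0.70 for PCNA, -0.59 for RFC1, -0.35 for RPA2, -0.59 for FEN1, 0.67 for LIG1, -0.44 for CHAF1A, -0.76 for CLSPN and 0.49 for TIMELESS.

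Among the named genes of the other lists, replication factors differed by -1.0 (DONSON), 0.70 (DSCC1), -1.59 (MCMBP), 1.42 (RNASEH2A) and -0.75 (TOP2A), and nucleotide supply genes by -1.08 (RRM2), 1.95 (NME1) and 2.92 (SLC29A1). Histone chaperones differed by -0.52 (ASF1B), -1.01 (HAT1) and 0.47 (SUPT16H), and checkpoint genes by 0.80 (ATRIP), -1.0 (WEE1), -0.87 (CDC25A) and 0.59 (RAD17). Cohesion genes differed by -1.41 (ESCO2), -0.55 (SMC3) and -0.76 (RAD21), and G1/S regulators by -0.89 (E2F1), -1.40 (E2F2), -1.13 (E2F8) and -1.01 (CCNE2).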

How the results depend on the processing

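After rescaling to the same sum, 14 members fell in HL60 (26 as deposited), 7 differences between lines were positive (14), MCM3 in HL60 was 0.050 (-0.13), and the HL60 medians of licensing, polymerase and clamp genes were -0.056 (-0.24), -0.39 (-0.57) and 0.27 (0.09). Rescaling by median ratios gave HL60 medians of -0.18 for licensing and 0.15 for clamp genes, and quantile normalization -0.35 and -0.011, the clamp median thus changing sign. In Kasumi-1 the medians of licensing, polymerase and clamp genes were -0.16, -0.18 and -0.22 by median ratios, and -0.18, -0.20 and -0.25 by quantiles. Polymerase and clamp medians there were -0.26 and -0.31 after rescaling to the same sum and -0.25 and -0.29 with the smaller pseudocount.

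Members that rose in Kasumi-1 numbered 0 without a filter, after rescaling to the same sum and with the line fitted alone, and 3 by median ratios or quantiles; with the line fitted alone 10 members fell. Among all genes in Kasumi-1, 833 rose without a filter, 772 after rescaling to the same sum and 683 with the line alone, where 1152 fell (1266 and 2026 otherwise). Without a filter, 3 members were higher in untreated Kasumi-1.

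With single libraries left out, where a group is left with 1 library it is assumed to vary like the others. The HL60 medians then ran from -0.28 to -0.16 for licensing, -0.62 to -0.52 for polymerase and 0.023 to 0.11 for clamp genes, and those of Kasumi-1 from -0.22 to -0.18, -0.29 to -0.21 and -0.29 to -0.25. In Kasumi-1, 0 to 1 members rose and 10 to 21 fell, and 634 to 1029 genes rose and 987 to 1727 fell. Members higher in untreated Kasumi-1 numbered 3 to 5.

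Same-numbered libraries deviated together (correlations of 0.125 to 0.331 over the 6 pairs of groups, 0.274 to 0.431 without short RNAs), and the small RNA SNORD50A was listed at 0 in every number 1 library and at 45596 to 748781 FPKM in number 2 libraries, but each drug comparison has only 2 such pairs and no label says that a number marks a batch, so the numbers were not taken as pairing. With the replicate block, 12 members rose and 27 fell in HL60, 5 rose and 26 fell in Kasumi-1, the difference was positive for 17 and negative for 15, and 6 were higher and 36 lower in untreated Kasumi-1. RFC4 was then called as a rise in both lines, with adjusted p = 0.0347 for Kasumi-1 and adjusted p = 0.000367 for HL60. Causes of these shifts were not tested.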
